A study of Mus musculus with 33 samples.

Results

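The genes followed here are the mouse receptors for the Fc part of immunoglobulin G and the kinases that carry their signal: Fcgr1, Fcgr2b, Fcgr3, Fcgr4, Fcer1g, Fcgrt, Syk, Fgr and Lyn. They were taken from the deposited count table by gene symbol, with no threshold on their values, and are 9 of its 54752 features, of which 28239 had any count. The table holds bulk RNA sequencing of cells sorted from mouse bone marrow, in 11 groups of 3 libraries. Wild-type control cells made up 7 groups: granulocyte-monocyte progenitors without surface Ly6C (Ly6C- GMP), 3 neutrophil precursors (proNeu1, then proNeu2, then preNeu), and on the monocyte path cMoP (common monocyte progenitors), TpMo and Ly6Chi monocytes. The 4 sepsis groups were Ly6C- GMP, proNeu1, proNeu2 and preNeu taken at day 3 after mid-grade CLP (caecal ligation and puncture, in which gut contents leak into the peritoneum), which the series' design text says were sorted the same way as the controls. Strain, age, the number of animals behind a library and the control procedure are not given in the sources used here, and the libraries of a group are called biological replicates. Monocyte-path cells from septic mice were not analysed here.

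Fc gamma receptors bind antibody-coated particles and immune complexes and link them to phagocytosis, oxidative burst and cytokine release in neutrophils and monocytes. The activating receptors signal through the FcR gamma chain, whose tyrosine motif (ITAM) is phosphorylated by SRC family kinases such as LYN and FGR and then bound by the kinase SYK. The inhibitory receptor encoded by Fcgr2b carries an inhibitory motif (ITIM) of its own and counteracts the activating receptors on the same cell. GMP are conventionally gated with an antibody that binds the products of Fcgr3 and Fcgr2b together. Whether that antibody was part of the gates used here is not given in the sources used here, so the levels of these 2 genes may reflect the sort.

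By the coordinates of the table (GRCm38, exon models merged per gene), 4 of the 9 genes lie close together on chromosome 1. Fcgr2b (ENSMUSG00000026656.15) occupies 170958617 to 170976547 on the minus strand, Fcgr4 (ENSMUSG00000059089.4) 171018920 to 171029761 on the plus strand, Fcgr3 (ENSMUSG00000059498.13) 171051174 to 171064935 on the minus strand and Fcer1g (ENSMUSG00000058715.11) 171229572 to 171234365 on the minus strand. Fcgr1 (ENSMUSG00000015947.10) is on chromosome 3 at 96282909 to 96293969 and Fcgrt (ENSMUSG00000003420.8) on chromosome 7 at 45092990 to 45103851, both on the minus strand. The kinase genes are on the plus strand, with Lyn (ENSMUSG00000042228.14) on chromosome 4 at 3678115 to 3813122, Fgr (ENSMUSG00000028874.14) on chromosome 4 at 132974095 to 133001910 and Syk (ENSMUSG00000021457.14) on chromosome 13 at 52583173 to 52648792.

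The inhibitory and the low-affinity activating receptor are near copies over their extracellular part, which bears on how well reads separate them. Of 509 aligned coding bases of Fcgr2b and Fcgr3 (GENCODE vM21), 491 were identical (96.5%), against 66.4% between Fcgr2b and Fcgr4. The longest identical stretch was 129 coding bases across an exon junction, shown here because any read that lies inside it fits both genes:
Fcgr2b and Fcgr3 shared coding stretch: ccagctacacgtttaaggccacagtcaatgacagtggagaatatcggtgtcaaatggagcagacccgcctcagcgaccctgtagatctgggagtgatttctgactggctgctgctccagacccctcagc
The sequencing reads had 151 cycles, longer than this stretch. None of the 151-base windows of Fcgr3 transcripts (0%) occurred in a transcript of another gene, while 9.58% of its 50-base windows occurred in Fcgr2b. For Fcgr2b itself, 1.89% of 151-base and 6.95% of 50-base windows occurred in other genes. Neither Fcgr1, Fcgr4, Fcer1g, Fcgrt, Syk nor Fgr shared a window of either length with another gene (0% each).

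Lyn needs a separate caution. It shares 248 exon bases (6.09% of its exon length) with the opposite-strand gene Gm26857, and the strand setting of the counting is not given in the sources used here. Gm26857 was counted at 1.67% to 7.95% of the mean level of Lyn across the 11 groups, with the top value in Ly6Chi monocytes. Of its transcript windows, 18.28% of those of 50 bases and 7.82% of those of 151 bases occurred in Gm26857 or Gm11787, the top shares among the 9 genes. Gm11787 was counted at 0.266% to 0.752% of the mean level of Lyn. Reads of the overlap with Gm26857 cannot be assigned to either gene without strand.

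Promoters of the 3 activating receptor genes are shown because these genes differed between stages and between control and septic cells. The bases lie upstream of RefSeq start sites (GRCm38.p6), read 5′ to 3′ on the gene's strand, outside any annotated exon. Capitals mark matches, on either strand, to the PU.1 core GAGGAA (reverse complement TTCCTC), the gamma-activated STAT site TTCNNNGAA (GAS) and the C/EBP core TTGCNNAA (reverse complement TTNNGCAA), which are recognition letters of factors known in myeloid cells.
Fcgr1, chr3:96293970-96294089, minus strand: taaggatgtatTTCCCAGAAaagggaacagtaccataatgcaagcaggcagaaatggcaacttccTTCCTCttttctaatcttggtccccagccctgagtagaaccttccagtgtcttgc
Fcgr3, chr1:171059404-171059523, minus strand: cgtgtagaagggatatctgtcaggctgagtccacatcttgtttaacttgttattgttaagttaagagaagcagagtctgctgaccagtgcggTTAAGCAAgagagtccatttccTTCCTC
Fcgr4, chr1:171018806-171018919, plus strand: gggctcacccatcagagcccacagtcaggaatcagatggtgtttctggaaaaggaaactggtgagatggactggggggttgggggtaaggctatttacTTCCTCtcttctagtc
The GAS match of Fcgr1 spans bases -109 to -101 from the start site and its TTCCTC match -55 to -50. From the start shown, Fcgr3 has TTCCTC at -6 to -1 and a C/EBP match at -28 to -21. Counted from its other RefSeq start, the same matches lie at -15 to -10 and -37 to -30. The Fcgr3 window lies inside the interval given above for the gene, not at its 5′ end. Fcgr4 has TTCCTC at -22 to -17. In 250-base windows upstream of 32851 RefSeq starts, 23.25% held the PU.1 letters, 7.02% the GAS letters and 9.56% the C/EBP letters. The same windows of Fcgr2b, Fcer1g and Fgr held none of the 3 patterns. Fcgrt held a C/EBP match and Syk the PU.1 letters at 1 of its 2 starts. No window was available for Lyn. These are matches of letters in a window and no measurement of binding.

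Libraries held 5.52 to 39.98 Mcounts (megacounts, the total over all genes). The shallow libraries, at 6.78 Mcounts or less, were Ly6Chi monocyte replicate 2, control and septic proNeu1 replicate 1, and control and septic preNeu replicate 3, while the others held 17.24 Mcounts or more. Control preNeu replicate 3 correlated more with the proNeu2 mean (r = 0.895 of log2 CPM) than preNeu replicates 1 and 2 did (0.844 and 0.849). The 9 monocyte-path libraries held 0 to 1.4 CPM of Xist, the transcript of the inactive X chromosome, against 153 to 587 CPM in the other 24 libraries. They held 68.8 to 98.6 CPM of the Y-linked Ddx3y against 0 to 0.725 CPM in the others, so sex of the animals and path cannot be told apart where the paths are compared, which includes the step from Ly6C- GMP to cMoP. Marker genes of the sorted identities were present. Control preNeu libraries held 54.2 to 88.2 CPM of the neutrophil surface marker gene Ly6g. A list of 10 monocyte markers summed to 18508 to 20722 CPM in Ly6Chi monocytes and to 584 to 1493 CPM in preNeu.

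Levels are given as CPM, the counts of a gene divided by the Mcounts of its library, for replicates 1, 2 and 3 in that order, with means ± SD of n = 3. Changes are log2 fold changes ± SE from an edgeR quasi-likelihood fit of all libraries, and a gene was called when its adjusted p, Benjamini-Hochberg over 18198 genes, was under 0.05. All 9 genes passed the filter on low counts.

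Levels per kilobase were divided by the merged length of all annotated exons, 1736 bases for Fcgr3, 5790 for Fcgr2b and 9362 for Syk. The coding sequences of Fcgr3 and Fcgr2b had 801 and 1020 bases, so comparisons between genes depend on the exons used. Compared per kilobase of exon, Fcgr3 had the top level of the 9 genes in every group except TpMo, where Fcer1g stood at 246 and Fcgr3 at 238 CPM per kb. Its level ran from 185 CPM per kb in septic Ly6C- GMP to 467 CPM per kb in proNeu1. In control Ly6C- GMP, Fcgr3 stood at 323 CPM per kb, the gamma chain gene Fcer1g at 34.4 and the inhibitory Fcgr2b at 30.8. Lyn and Syk followed at 18.5 and 16.3 CPM per kb, and Fcgr4, Fgr and Fcgr1 at 3.98, 1.63 and 0.908. In Ly6Chi monocytes the gamma chain had come level with the receptor, with Fcer1g at 392 and Fcgr3 at 414 CPM per kb, and Lyn (148), Fgr (135), Fcgr2b (65.0), Syk (55.7), Fcgr1 (48.6) and Fcgrt (48.1) all stood above Fcgr4 (11.0). Ly6Chi monocytes had the top mean of 7 of the 9 genes, the exceptions being Fcgr3, highest in proNeu1, and Fcgr4, highest in septic preNeu.

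**Figure D1:**
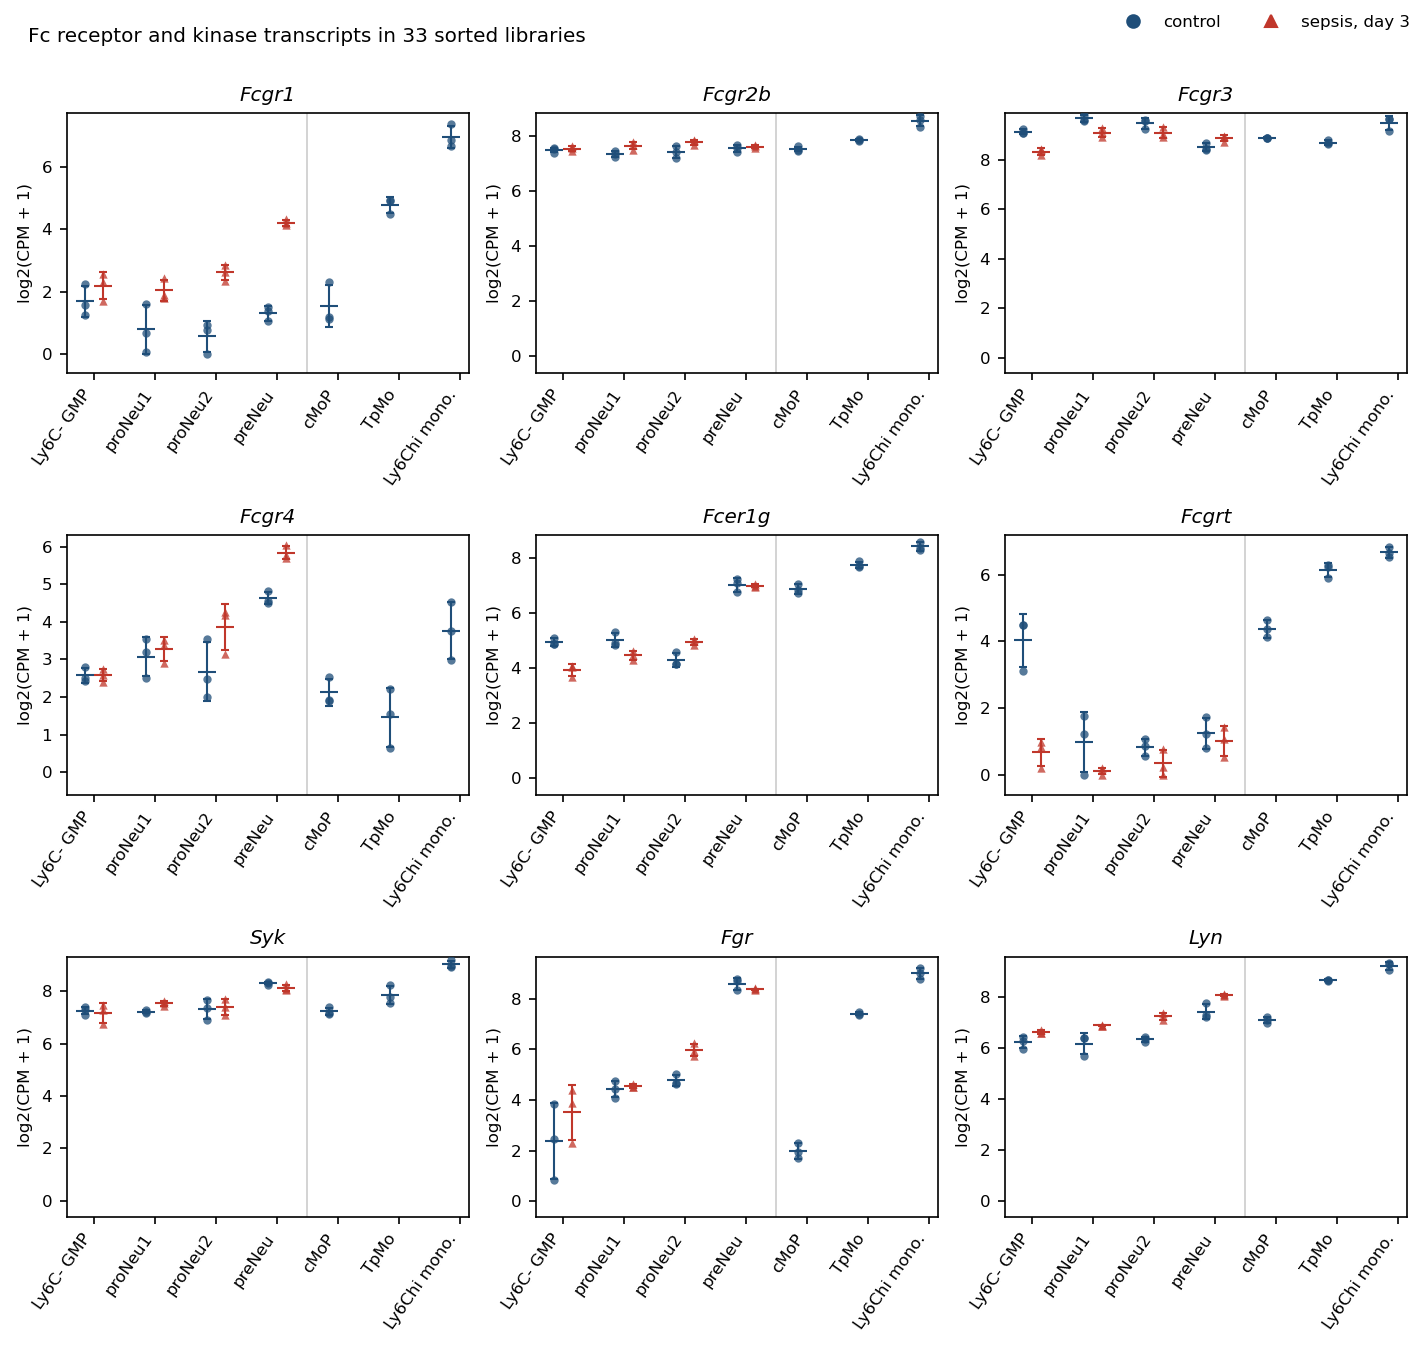
Level of each gene as log2(CPM + 1) (vertical axis) in every library by sorted population (horizontal axis), with control as blue circles, day 3 sepsis as red triangles, and the horizontal tick and bar giving mean and SD of 3 libraries; the grey line separates the neutrophil path with Ly6C- GMP from the monocyte path. Fcgr1, Fcgrt and Fgr span the widest ranges, and septic preNeu at 16.4 to 18.9 CPM of Fcgr1 lie between control preNeu and TpMo.

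Among control cells the high-affinity receptor gene Fcgr1 was a transcript of late monocyte stages. Its libraries held 29.5, 21.3 and 29.1 CPM in TpMo and 162, 115 and 100.3 CPM in Ly6Chi monocytes. In cMoP they held 3.92, 1.29 and 1.15 CPM, in Ly6C- GMP 1.39, 1.97 and 3.7 CPM, and in preNeu 1.58, 1.06 and 1.81 CPM. Ly6Chi monocytes lay above TpMo and TpMo above every other control group, without overlap, while the remaining control groups overlapped their neighbours in the order of means. Fcgr1 rose by a log2 fold change of 3.82 ± 0.66 from cMoP to TpMo (adjusted p = 8.53e-05) and by 2.26 ± 0.60 from TpMo to Ly6Chi monocytes (adjusted p = 0.00614). In proNeu1 and proNeu2 only 32 counts in each group of libraries were assigned to it, which limits what could be detected there.

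Fcgr3, which encodes the low-affinity activating receptor, was abundant from the start and varied little. Ly6C- GMP held 545, 599 and 537 CPM, proNeu1 781, 891 and 759 CPM, proNeu2 756, 781 and 597 CPM, and preNeu 345, 329.8 and 407 CPM. The 3 proNeu1 libraries lay above those of Ly6C- GMP, and the 3 preNeu libraries below those of proNeu2. It rose by 0.66 ± 0.14 from Ly6C- GMP to proNeu1 (adjusted p = 0.00237) and fell by 0.77 ± 0.14 from proNeu2 to preNeu (adjusted p = 6.9e-05). On the monocyte path it stood at 462, 474 and 473 CPM in cMoP and at 407, 439 and 390.3 CPM in TpMo. In CPM every TpMo library thus lay below every cMoP library, but the change of 0.01 ± 0.14 was not called. CPM uses library totals and the fit uses TMM scaling. Scaling by total counts moved the median of all genes by -0.192 in this comparison. Ly6Chi monocytes, at 804, 789 and 565 CPM, lay above TpMo (0.82 ± 0.14, adjusted p = 4.25e-05). Over all 11 groups the means of Fcgr3 differed by 2.52-fold at most, the highest in proNeu1 and the lowest in septic Ly6C- GMP.

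Fcgr4, which encodes an activating receptor of intermediate affinity found on monocytes and neutrophils, marked the late neutrophil stage in this table. It stood at 22.6, 27.3 and 21.7 CPM in preNeu against 10.6, 3 and 4.52 CPM in proNeu2, without overlap, a rise of 2.21 ± 0.50 (adjusted p = 0.00108). In cMoP the libraries held 2.72, 2.8 and 4.83 CPM and in TpMo 1.91, 0.558 and 3.6 CPM, and these overlapped. Ly6Chi monocytes held 22, 12.6 and 6.97 CPM, all above TpMo (2.81 ± 0.52, adjusted p = 0.000166). Their mean of 13.9 ± 7.59 CPM was below that of preNeu, 23.9 ± 2.96 CPM, with a difference of -0.97 ± 0.48 that was not called (adjusted p = 0.114). Without Ly6Chi monocyte replicate 1 that difference was -1.62 (adjusted p = 0.0209).

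The inhibitory receptor gene Fcgr2b hardly moved on the neutrophil path and rose late on the monocyte path. It stood at 167, 181 and 186 CPM in Ly6C- GMP, 168, 146 and 197 CPM in proNeu2 and 169.9, 199.8 and 187 CPM in preNeu, which overlap. A rise of 0.34 ± 0.12 from proNeu2 to preNeu was called (adjusted p = 0.0396), but not with scaling by total counts (0.13, adjusted p = 0.428), without a low-count filter (0.0603) or with only the libraries compared (0.186). It also ended when proNeu2 replicate 1 or 2 or preNeu replicate 1 or 2 was left out, with a largest adjusted p of 0.289 and a log2 fold change of 0.21 without preNeu replicate 2. Monocyte stages were apart from each other. TpMo held 222, 234 and 229 CPM against 179, 175 and 196 CPM in cMoP (0.52 ± 0.12, adjusted p = 0.00294), and Ly6Chi monocytes 423, 385 and 321 CPM (0.73 ± 0.12 over TpMo, adjusted p = 4.83e-05).

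Fcer1g, the gene of the FcR gamma chain, rose late on the neutrophil path and from cMoP onward on the monocyte path. On the neutrophil path Ly6C- GMP held 33.6, 28.4 and 28.1 CPM, proNeu1 38.9, 29.3 and 27.6 CPM, proNeu2 23.2, 16.6 and 16.6 CPM, and preNeu 149.8, 135 and 107 CPM. All preNeu libraries lay far above those of the 3 earlier stages, with a rise of 3.03 ± 0.17 over proNeu2 (adjusted p = 2.35e-13). The fall of 0.65 ± 0.16 from proNeu1 to proNeu2 (adjusted p = 0.024) was not called with only the libraries compared (0.197), without the shallow libraries (0.087) or without proNeu1 replicate 1, proNeu2 replicate 2 or proNeu2 replicate 3 (0.132, 0.134 and 0.109). Monocyte-path cells gained the transcript earlier: cMoP already held 112, 132 and 104 CPM (1.99 ± 0.16 over Ly6C- GMP, adjusted p = 3.69e-10). TpMo followed at 207, 234 and 204 CPM and Ly6Chi monocytes at 314, 329 and 384 CPM, and each of these stages was called above the one before.

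Fcgrt encodes the neonatal Fc receptor, which binds immunoglobulin G inside endosomes and returns it to the surface, and it separated the paths. Its libraries held 21.3, 21.5 and 7.68 CPM in Ly6C- GMP and 16.3, 19.6 and 24.1 CPM in cMoP, which overlap. In proNeu1 they held 0, 2.35 and 1.33 CPM, a fall of 3.43 ± 0.63 from Ly6C- GMP (adjusted p = 0.000542), and control proNeu2 and preNeu libraries stayed at 2.29 CPM or less. TpMo, at 58.3, 76.8 and 73.3 CPM, lay above cMoP (1.99 ± 0.56, adjusted p = 0.0116), a call that ended without cMoP replicate 1 or 2 (adjusted p = 0.062 and 0.0537). Ly6Chi monocytes held 98.8, 114 and 90.6 CPM and exceeded preNeu by 5.77 ± 0.69 (adjusted p = 6.46e-08). Of 8 basophil and mast cell markers, 7 also fell from Ly6C- GMP to proNeu1, from a sum of 9224 to 13241 CPM to one of 736 to 761 CPM, and of 9 tested dendritic cell markers 7 fell, from 2705 to 3948 CPM to 58.9 to 96.3 CPM. Of 8 eosinophil markers 6 fell, from 4896 to 9036 CPM to 72.1 to 109 CPM. None of these markers was at 0 in all libraries of either group. In proNeu1 the basophil markers Fcer1a and Cd200r3, the dendritic markers Siglech, Itgax, Xcr1 and Ciita and the eosinophil markers Ccr3, Ear1, Ear6 and Il5ra averaged below 1 CPM, as did Siglech in Ly6C- GMP. Their part in the fall of Fcgrt was not tested, and in bulk samples fewer cells of a type and less RNA per cell cannot be told apart.

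Among the kinases, Fgr had the steepest profile. The SRC family kinase gene was nearly silent in cMoP, at 3.96, 2.85 and 2.3 CPM, and stood at 178, 170.2 and 162 CPM in TpMo (5.99 ± 0.57, adjusted p = 8.41e-09) and 599, 519 and 443 CPM in Ly6Chi monocytes (1.63 ± 0.45 over TpMo, adjusted p = 0.00888). On the neutrophil path it went from 31.9, 23.9 and 24.5 CPM in proNeu2 to 439, 413 and 321 CPM in preNeu (4.10 ± 0.50, adjusted p = 3.1e-07). Ly6Chi monocytes ranked first and preNeu next in mean Fgr, and in CPM every Ly6Chi monocyte library lay above every preNeu library. Their difference of 0.20 ± 0.44 was not called (adjusted p = 0.766), which does not show that the levels were alike. Control Ly6C- GMP were scattered, at 4.52, 13.5 and 0.813 CPM, against 25.7, 16.2 and 20.7 CPM in proNeu1. The called rise between them of 1.83 ± 0.48 (adjusted p = 0.0195) was lost without Ly6C- GMP replicate 1 or 3, without proNeu1 replicate 1 or 3, without the shallow libraries, without a low-count filter and with only the libraries compared (largest adjusted p = 0.239). Without Ly6C- GMP replicate 2 it was 3.08 (adjusted p = 0.000145).

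Lyn encodes the SRC family kinase that acts on both the activating motifs and the inhibitory motif, and it increased by steps on the monocyte path. It stood at 77.5, 62.1 and 86 CPM in Ly6C- GMP, 138, 148 and 126 CPM in cMoP, 412, 394 and 406 CPM in TpMo and 653, 626 and 534 CPM in Ly6Chi monocytes. No 2 neighbouring stages overlapped. The steps were 0.90 ± 0.16 (adjusted p = 0.000175), 1.76 ± 0.16 (adjusted p = 7.25e-09) and 0.59 ± 0.16 (adjusted p = 0.0078), and the last was lost without Ly6Chi monocyte replicate 1 (0.46, adjusted p = 0.0759). On the neutrophil path Lyn stayed between 50.7 and 86 CPM in the 9 control libraries up to proNeu2 and reached 149.6, 217 and 158 CPM in preNeu (1.35 ± 0.16, adjusted p = 2.84e-07).

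Syk, the kinase that docks to phosphorylated ITAMs, was already expressed in Ly6C- GMP and varied less. It stood at 156, 166 and 136 CPM there, 165, 119.6 and 199.5 CPM in proNeu2 and 325, 303 and 317 CPM in preNeu, which lay above the earlier stages (1.18 ± 0.18 over proNeu2, adjusted p = 7.71e-06). On the monocyte path cMoP held 139, 166 and 144 CPM, TpMo 215, 188 and 301 CPM and Ly6Chi monocytes 499, 579 and 486 CPM, and these 3 groups did not overlap. Both monocyte steps after cMoP were called, at 0.85 ± 0.18 (adjusted p = 0.000748) and 1.15 ± 0.18 (adjusted p = 1.25e-05).

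**Figure D2:**
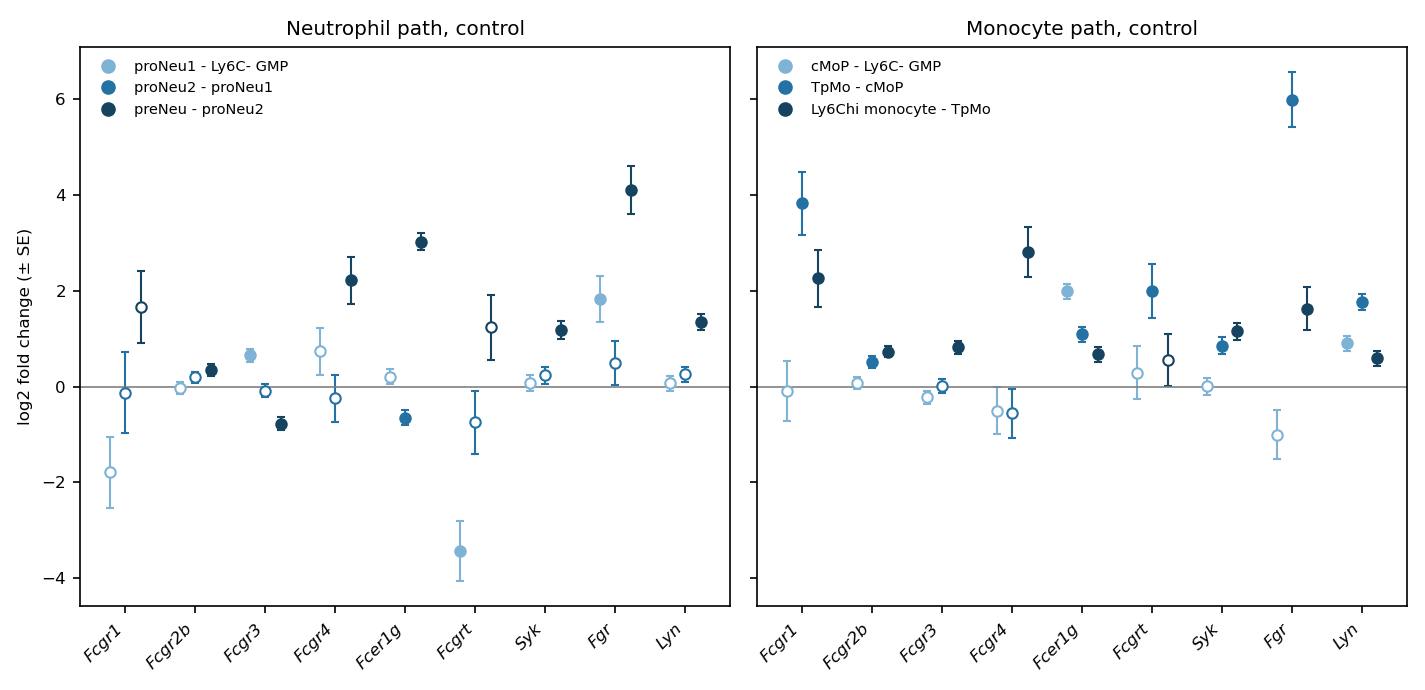
Log2 fold change with SE (vertical axis) of each gene (horizontal axis) at 3 consecutive steps of the neutrophil path (left) and the monocyte path (right) in control cells; filled circles were called and open circles were not. The last neutrophil step carries rises of Fgr (4.10), Fcer1g (3.03) and Fcgr4 (2.21) beside a fall of Fcgr3, and the second monocyte step the rise of Fgr by 5.99.

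Counted by step, 2 of the 9 genes rose (Fcgr3 and Fgr) and 1 fell (Fcgrt) from Ly6C- GMP to proNeu1, where 3.59% of all tested genes were called higher and 2.45% lower (6.04% in all). From proNeu1 to proNeu2 the only call was Fcer1g, lower, against 1.48% of all genes called lower and 1.57% higher (3.05% in all). From proNeu2 to preNeu 6 rose (Fcgr2b, Fcgr4, Fcer1g, Syk, Fgr and Lyn) and Fcgr3 fell, against 13.1% higher and 14.7% lower (27.8% in all). Neighbouring steps share a group of libraries and are not independent of each other.

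On the monocyte path, 2 of 9 rose from Ly6C- GMP to cMoP (Fcer1g and Lyn), with 9.22% of all genes called higher and 7.96% lower (17.2% in all). In the step to TpMo 7 rose, all except Fcgr3 and Fcgr4, against 9.52% higher and 8.56% lower (18.1% in all). In the step to Ly6Chi monocytes 8 rose, all except Fcgrt, against 7.59% higher and 13.3% lower (20.9% in all). No member was called lower at any of these 3 steps. Fgr differed by -1.003 ± 0.52 from Ly6C- GMP to cMoP (adjusted p = 0.202), by -1.52 without Ly6C- GMP replicate 3 (adjusted p = 0.0152) and by 0.25 without Ly6C- GMP replicate 2 (adjusted p = 0.833). Fcgrt did not pass at the last step, with a difference of 0.55 ± 0.54 (adjusted p = 0.554).

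Markers of other cells moved at each of these steps. From Ly6C- GMP to cMoP all 8 eosinophil markers, all 8 basophil and mast cell markers and 7 of 9 tested dendritic cell markers fell, to sums of 27.3 to 30.7, 123 to 145 and 17.2 to 30.7 CPM in cMoP, with 1 eosinophil marker at 0 in all cMoP libraries. From TpMo to Ly6Chi monocytes 6 of 9 dendritic cell markers rose and none fell, from a sum of 27.2 to 43.2 CPM to one of 249 to 917 CPM, with Siglech and Zbtb46 below 1 CPM on average in both groups. At that last step 3 of 8 basophil and mast cell markers rose and 1 fell. From cMoP to TpMo 4 of the same 8 fell and none rose. Of 10 late neutrophil markers 4 rose and 1 fell from cMoP to TpMo, and of 10 macrophage markers 2 rose and 1 fell. Of 9 tested B cell markers 1 rose and 2 fell there. The part of these markers in the members' changes was not tested.

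Set side by side at the first branching, cMoP held more Fcer1g (1.79 ± 0.16), Fcgrt (3.72 ± 0.63) and Lyn (0.83 ± 0.16) than proNeu1 and less Fcgr3 (-0.88 ± 0.14) and Fgr (-2.83 ± 0.52), 5 calls of 9 against 8.03% of all genes called higher and 8.25% lower (16.3% in all). Adjusted p-values for these ran from 5.03e-09 (Fcer1g) to 0.000494 (Lyn). No neutrophil stage after preNeu was among the groups, so maturity and path cannot be told apart between the last stages sampled. There 7 of 9 were higher in Ly6Chi monocytes than in preNeu and none lower. Of all genes, 18.9% were called higher and 21% lower (39.8% in all). The differences of the 7 ran from 0.52 ± 0.18 for Syk to 6.25 ± 0.75 for Fcgr1. The Syk call (adjusted p = 0.0192) was lost without preNeu replicate 3, Ly6Chi monocyte replicate 1 or Ly6Chi monocyte replicate 2, without the shallow libraries and with only the libraries compared (largest adjusted p = 0.213). In the comparison of cMoP and proNeu1, Fcgr1 (1.70 ± 0.74, adjusted p = 0.123) passed without proNeu1 replicate 1 (2.74, adjusted p = 0.0179), without the shallow libraries and with halved counts.

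Averaged over the 4 populations, 4 of the 9 genes rose (Fcgr1, Fcgr2b, Fcgr4 and Lyn) and 3 fell (Fcgr3, Fcer1g and Fcgrt), against 19.6% of all genes called higher and 17.5% lower (37.1% in all). The mean effects were 2.52 ± 0.34 for Fcgr1 (adjusted p = 9.97e-07), 0.23 ± 0.06 for Fcgr2b (adjusted p = 0.00375), 0.71 ± 0.24 for Fcgr4 (adjusted p = 0.0208) and 0.69 ± 0.08 for Lyn (adjusted p = 7.76e-08). Fcgr3 fell by 0.30 ± 0.07 (adjusted p = 0.000709), a mean over falls in early stages and a positive difference in preNeu. Fcgrt fell by 2.56 ± 0.38 (adjusted p = 4.21e-06). Syk (0.07 ± 0.09, adjusted p = 0.575) and Fgr (0.56 ± 0.23, adjusted p = 0.0563) were not called. Fgr passed with a stricter low-count filter, with halved counts, without control Ly6C- GMP replicate 2 (0.87, adjusted p = 0.000861) and without septic Ly6C- GMP replicate 1 (0.66, adjusted p = 0.0136).

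**Figure D3:**
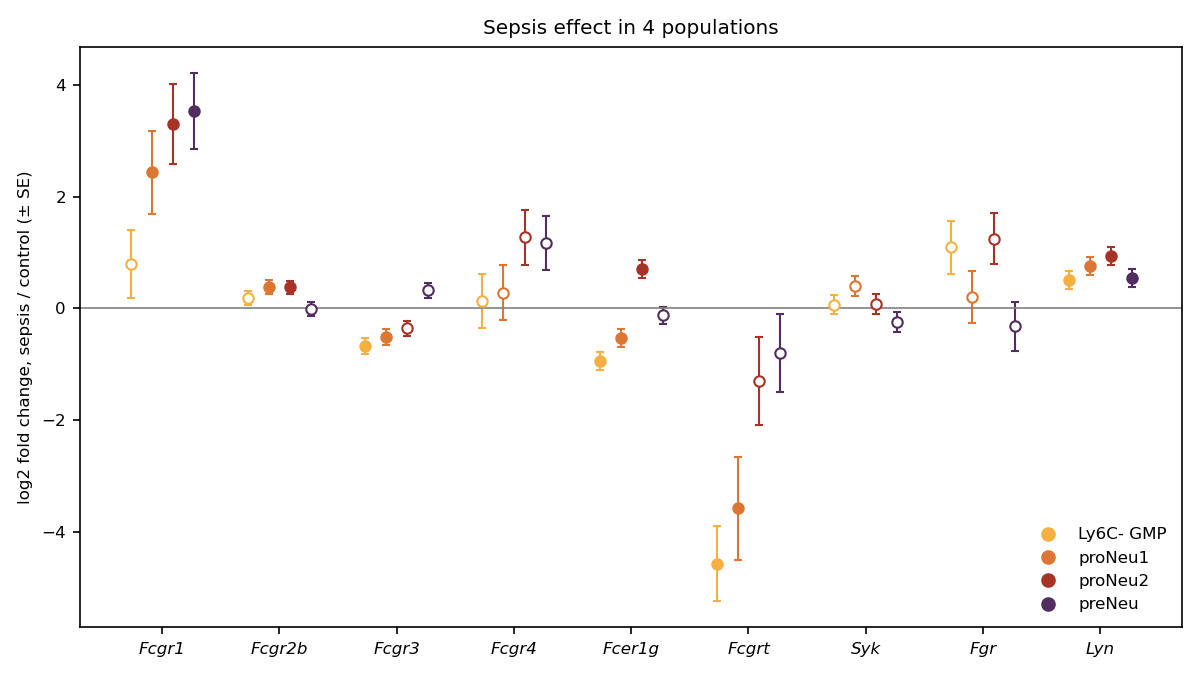
Log2 fold change of sepsis over control with SE (vertical axis) for each gene (horizontal axis) in Ly6C- GMP, proNeu1, proNeu2 and preNeu (colours, left to right within a gene); filled circles were called and open circles were not. Fcgr1 ran from 0.79 in Ly6C- GMP to 3.53 in preNeu, Fcgrt from -4.58 to -0.79, and Lyn lay above 0 in all 4.

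Fcgr1 was called higher in septic proNeu1, proNeu2 and preNeu. Septic preNeu held 17.2, 16.4 and 18.9 CPM against 1.58, 1.06 and 1.81 CPM in control preNeu (3.53 ± 0.68, adjusted p = 0.000677). Septic proNeu2 held 5.2, 4.09 and 6.2 CPM against 0, 0.7 and 0.884 CPM (3.30 ± 0.71, adjusted p = 0.00137), and septic proNeu1 2.49, 2.7 and 4.37 CPM against 2.06, 0.607 and 0.05 CPM (2.44 ± 0.74, adjusted p = 0.0242). In none of these 3 populations did the groups overlap, though the proNeu1 values lie close. The proNeu1 call was lost without control replicate 2 or 3, without septic replicate 3, without a low-count filter and with only the libraries compared (largest adjusted p = 0.186), and its log2 fold change was 1.60 without control replicate 3. In Ly6C- GMP the septic libraries, at 3.9, 2.27 and 4.96 CPM, overlapped the controls and the change of 0.79 ± 0.61 was not called (adjusted p = 0.427).

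Monocyte markers moved with the Fcgr1 rise in preNeu. Of 10 monocyte markers, 6 rose in septic preNeu and none fell, and their summed level went from 584 to 1493 CPM in control to 2014 to 3054 CPM in septic libraries, with none of the 10 at 0 in all libraries of either group. F13a1 stood at 925 ± 294 CPM against 87.2 ± 88.1 CPM, Ccr2 at 119 ± 28.8 against 6.44 ± 5.42 CPM and Csf1r at 75.6 ± 24.3 against 13.5 ± 12.9 CPM. In septic proNeu1 the same list had 4 falls and no rise, and in septic proNeu2 1 rise and 1 fall. The part of the markers in the Fcgr1 rise was not tested.

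Fcgr3 moved the other way in the earlier stages. Septic Ly6C- GMP held 341, 333 and 289 CPM, all below the control values of 537 to 599 CPM (-0.67 ± 0.14, adjusted p = 0.000705). Septic proNeu1 held 611, 549.8 and 477 CPM, below the control values of 759 to 891 CPM (-0.51 ± 0.14, adjusted p = 0.00962), a call lost without control replicate 2 (adjusted p = 0.0557) or septic replicate 3 (adjusted p = 0.0694). In proNeu2 the groups overlapped, at 645, 523 and 477 CPM against 756, 781 and 597 CPM, and the change of -0.35 ± 0.14 was not called (adjusted p = 0.0743). It passed with DESeq2 (adjusted p = 0.0304), with scaling by total counts (0.0477), without control replicate 3 (0.0332) and without septic replicate 1 (0.028). In preNeu the septic libraries, at 486, 498 and 423 CPM, lay above the controls at 345, 329.8 and 407 CPM, with a change of 0.32 ± 0.14 that was not called (adjusted p = 0.135). The test of whether the 4 effects differ from each other was passed by Fcgr3 (adjusted p = 0.00481).

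Fcgr4 was not called in any single population. Septic preNeu held 54, 64.7 and 51.1 CPM, all above the 21.7 to 27.3 CPM of control preNeu, with a change of 1.17 ± 0.48 (adjusted p = 0.122). With only the 6 preNeu libraries in the fit the change was 1.17 with an adjusted p of 0.00779. Septic proNeu2 held 7.91, 18 and 17 CPM and overlapped the controls (1.27 ± 0.49, adjusted p = 0.0733), and this change passed with DESeq2 (0.0403), a stricter low-count filter (0.0497), without control replicate 1 (0.0144) and without septic replicate 1 (0.0405). In Ly6C- GMP and proNeu1 the changes were 0.13 ± 0.49 and 0.28 ± 0.49.

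Fcgr2b rose slightly in proNeu1 and proNeu2. It stood at 179, 217 and 203 CPM in septic proNeu1 against 172, 149 and 162 CPM (0.38 ± 0.12, adjusted p = 0.0374), and at 201, 229 and 223 CPM in septic proNeu2 against 168, 146 and 197 CPM (0.37 ± 0.12, adjusted p = 0.0358), without overlap in either. Both calls were fragile. That of proNeu1 was lost without any of the 3 controls, without septic replicate 2 or 3 and without a low-count filter (largest adjusted p = 0.191). That of proNeu2 was lost without control replicate 1 or 2, without septic replicate 2 or 3, without a low-count filter, without the shallow libraries and with only the libraries compared (largest adjusted p = 0.218). In Ly6C- GMP (0.18 ± 0.12) and preNeu (-0.00 ± 0.12) no change was called.

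For Fcer1g the direction differed between stages. Septic Ly6C- GMP held 15.8, 15.5 and 11.8 CPM, all below the 28.1 to 33.6 CPM of the controls (-0.94 ± 0.16, adjusted p = 9.36e-05). Septic proNeu1 held 21.5, 23.4 and 18.5 CPM, below the controls at 38.9, 29.3 and 27.6 CPM (-0.52 ± 0.16, adjusted p = 0.025). Septic proNeu2, at 27.4, 30.8 and 32 CPM, lay above the controls at 23.2, 16.6 and 16.6 CPM (0.70 ± 0.16, adjusted p = 0.00233), and in preNeu 122, 125 and 133 CPM overlapped the controls (-0.13 ± 0.15, adjusted p = 0.69). The interaction test was passed by Fcer1g at an adjusted p of 0.000126, so its mean effect (-0.22 ± 0.08, adjusted p = 0.0277) averages over opposite changes. The proNeu1 call was lost without control replicate 1, septic replicate 1 or septic replicate 3, without the shallow libraries and with only the libraries compared (largest adjusted p = 0.194). The mean call was lost with only the libraries compared and without any of 8 libraries, control replicate 1 of each population, control preNeu replicate 2, septic Ly6C- GMP replicate 3, septic proNeu1 replicate 3 and septic proNeu2 replicate 1 (largest adjusted p = 0.0681).

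The loss of Fcgrt in septic Ly6C- GMP was the largest sepsis effect in a single population among the 9 genes, at 0.955, 0.156 and 0.779 CPM against 21.3, 21.5 and 7.68 CPM (-4.58 ± 0.67, adjusted p = 1.29e-05). In counts this was 50 over the 3 septic libraries and 1156 over the 3 controls. In septic proNeu1 only 6 counts remained against 115, with control values of 0, 2.35 and 1.33 CPM overlapping septic values of 0, 0.148 and 0.095 CPM, and the call (-3.58 ± 0.93, adjusted p = 0.0078) was lost without control replicate 2 (adjusted p = 0.0517). No change was called in proNeu2 (-1.30 ± 0.78) or preNeu (-0.79 ± 0.70), where both conditions lay at 2.29 CPM or less. The interaction test was passed at an adjusted p of 0.0333. It was not passed with DESeq2 (0.0647), without a low-count filter (0.0863), with only the libraries compared (0.209), without the shallow libraries (0.054) or without control Ly6C- GMP replicate 1 or 2, septic Ly6C- GMP replicate 2 or 3 or septic preNeu replicate 1 or 3 (largest adjusted p = 0.0815).

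Markers of other cells fell with Fcer1g and Fcgrt in septic Ly6C- GMP. All 8 basophil and mast cell markers fell, from a summed 9224 to 13241 CPM in controls to 434 to 1226 CPM in septic libraries, among them Prss34, a basophil protease gene, at 298 ± 248 against 7102 ± 1433 CPM. Of 9 tested dendritic cell markers 7 fell, from 2705 to 3948 CPM to 31.4 to 45.3 CPM, and Cd74, the invariant chain of class II molecules, went from 1273 ± 246 to 3.52 ± 0.804 CPM. Of the macrophage markers 4 of 10 fell and of the tested B cell markers 4 of 9. None of the basophil and dendritic markers was at 0 in all libraries of a group. Eosinophil markers summed to 4896 to 9036 CPM in controls and 2521 to 4631 CPM in septic libraries, with 1 of 8 called, higher. In septic proNeu1, where Fcer1g and Fcgrt were also lower, 5 of 8 basophil and mast cell markers and 5 of 10 late neutrophil markers fell. B cell markers there went from a summed 3346 to 6124 CPM in controls to 101 to 307 CPM in septic libraries, with 3 of 9 tested called lower. Of 8 erythroid markers 4 fell as well. In septic proNeu2, where Fcgr1 and Fcer1g were higher, 4 of 8 eosinophil markers rose and none fell. There 4 of 8 basophil and mast cell markers and 4 of 9 tested B cell markers fell, and none of either list rose. The part of these cells in the results was not tested.

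Lyn rose in septic cells of all 4 populations. It stood at 138, 165 and 153 CPM in septic proNeu2 against 84.8, 74.3 and 81.8 CPM (0.94 ± 0.16, adjusted p = 0.000123) and at 119, 117 and 117 CPM in septic proNeu1 against 83.5, 83.9 and 50.7 CPM (0.76 ± 0.16, adjusted p = 0.0016). Septic Ly6C- GMP held 95.7, 104 and 94.8 CPM against 77.5, 62.1 and 86 CPM (0.51 ± 0.16, adjusted p = 0.0255), and septic preNeu 271, 277 and 262 CPM against 149.6, 217 and 158 CPM (0.55 ± 0.16, adjusted p = 0.0229). In each population every septic library lay above every control library. The Ly6C- GMP call was lost with scaling by total counts (0.39, adjusted p = 0.0739), without control replicate 1 or 2 and without any of the 3 septic libraries (largest adjusted p = 0.156). The preNeu call was lost without control replicate 1 or 3, without septic replicate 1 or 2, without the shallow libraries and with only the libraries compared (largest adjusted p = 0.129). The 4 effects of Lyn did not pass the test for a difference between them (adjusted p = 0.55).

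The other kinases had no called sepsis effect in any population. Fgr stood at 52.7, 60.3 and 75.1 CPM in septic proNeu2, above the controls at 31.9, 23.9 and 24.5 CPM, with a change of 1.25 ± 0.45 (adjusted p = 0.0573). With only the 6 proNeu2 libraries in the fit its adjusted p was 0.00233, with a stricter low-count filter 0.0445 and with halved counts 0.0295. In preNeu it overlapped between septic (329, 339 and 326 CPM) and control libraries. In Ly6C- GMP, at 3.9, 19.9 and 13.6 CPM against 4.52, 13.5 and 0.813 CPM, the change was 1.10 ± 0.48 (adjusted p = 0.116), or 2.35 (adjusted p = 0.00115) without control replicate 2 and 1.5 (adjusted p = 0.0257) without septic replicate 1. For Syk the differences were 0.07 ± 0.18, 0.40 ± 0.18, 0.08 ± 0.18 and -0.24 ± 0.18 in the order of maturation. Its proNeu1 values of 188, 173 and 197 CPM lay above the controls at 143 to 153 CPM and passed with only the 6 proNeu1 libraries in the fit (adjusted p = 0.0128).

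Per population, 1 of the 9 genes rose (Lyn) and 3 fell (Fcgr3, Fcer1g and Fcgrt) in septic Ly6C- GMP, where 10.3% of all tested genes were called higher and 7.42% lower (17.7% in all). In septic proNeu1 3 rose (Fcgr1, Fcgr2b and Lyn) and the same 3 fell, against 8.3% higher and 7.3% lower (15.6% in all). With 1 library left out the proNeu1 count of 6 ran from 2 to 5, and it was 2 without control replicate 2 or septic replicate 3. In septic proNeu2 4 rose (Fcgr1, Fcgr2b, Fcer1g and Lyn) and none fell, against 9.45% higher and 7.57% lower (17% in all). In septic preNeu 2 rose (Fcgr1 and Lyn) and none fell, against 7.57% higher and 4.21% lower (11.8% in all). The interaction test was passed by 3 of 9 (Fcgr3, Fcer1g and Fcgrt), against 6.34% of all genes. For Fcgr1, Fcgr2b, Fcgr4, Syk and Fgr, as for Lyn, a difference of the sepsis effect between populations was not shown, with adjusted p-values from 0.161 (Fcgr1) to 0.557 (Fcgr4). That of Fgr was 0.298, or 0.016 without control Ly6C- GMP replicate 2.

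The balance of activating to inhibitory receptor transcripts was computed in each library. It was the sum of Fcgr1, Fcgr3 and Fcgr4 over Fcgr2b, each in CPM per kb with 0.1 added. Fcgr3 made up most of the sum, at 323 CPM per kb in control Ly6C- GMP beside 3.98 for Fcgr4 and 0.908 for Fcgr1. In septic preNeu these genes stood at 270, 45.1 and 6.76 CPM per kb. The ratio thus mostly reflects Fcgr3 over Fcgr2b, the 2 genes whose levels may reflect the sort. Its size depends on the exon lengths used. Means of both ratios were taken on the log2 scale and converted back. Along the neutrophil path from Ly6C- GMP to preNeu the control means were 10.6, 17.0, 14.1 and 7.06. The septic means of the same populations were 5.94, 9.32, 8.71 and 9.56. On the monocyte path from cMoP to Ly6Chi monocytes the control means were 8.66, 6.31 and 7.24. The ratio was thus lower in the 3 earlier septic stages and higher in septic preNeu, by -0.84, -0.86, -0.69 and 0.44 on the log2 scale. Septic and control libraries did not overlap in Ly6C- GMP, proNeu1 or preNeu, and did in proNeu2. Over the 24 libraries the mean difference was -0.49, with a two-sided exact permutation p of 0.00678 (labels exchanged within populations, 160000 relabellings, smallest possible p 1.25e-05), or 0.0136 adjusted over the 2 ratios tested. Without the Ly6C- GMP libraries it was -0.37 (exact permutation p = 0.0772) and without those of proNeu1 -0.36 (exact permutation p = 0.0725). Without those of proNeu2 it was -0.42 (exact permutation p = 0.0393) and without those of preNeu -0.80 (exact permutation p = 0.0005). In a single population of 3 against 3, an exact permutation test cannot go below p = 0.1. Both this test and the mean sepsis effects of edgeR treat libraries as independent. That would not hold if populations were sorted from the same animals, which is not given in the sources used here.

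The supply of gamma chain transcript per activating receptor was computed as Fcer1g over the same sum. It was lowest from Ly6C- GMP to proNeu2, at control means (converted back from the log2 scale) of 0.105, 0.077 and 0.052. It was higher in preNeu, at 0.653, and on the monocyte path from cMoP onward, at 0.482, 0.984 and 0.835. Libraries of preNeu and of the 3 monocyte-path groups did not overlap those of Ly6C- GMP, proNeu1 and proNeu2. Septic and control means differed by -0.28, -0.03, 1.02 and -0.53 on the log2 scale from Ly6C- GMP to preNeu, with a mean of 0.04 (exact permutation p = 0.794, adjusted 0.794). Without the proNeu2 libraries the mean was -0.28 (exact permutation p = 0.0335).

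**Figure D4:**
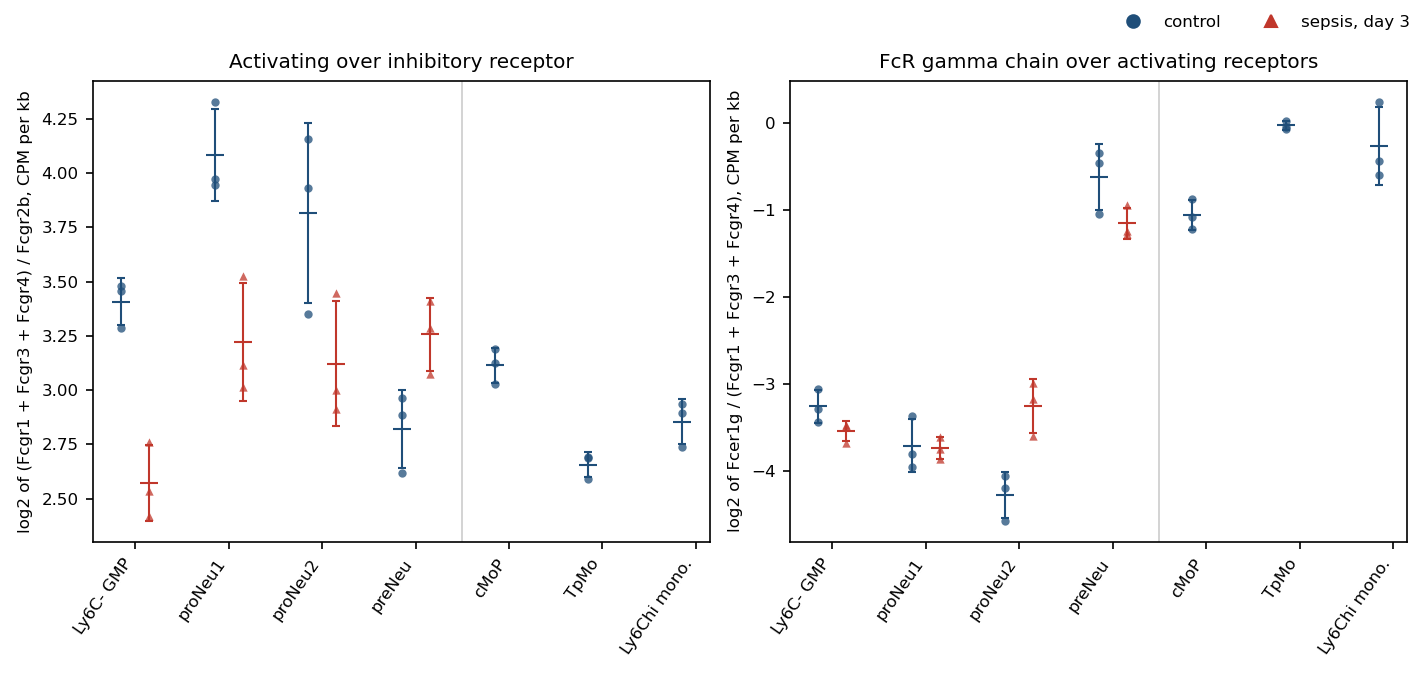
Log2 ratio of activating receptor transcripts to Fcgr2b (left) and of Fcer1g to activating receptor transcripts (right), from CPM per kb, in every library (points) by population, with mean and SD of 3 libraries; blue circles are control and red triangles day 3 sepsis. The activating to inhibitory ratio lies lower in septic Ly6C- GMP, proNeu1 and proNeu2 and higher in septic preNeu. The gamma chain ratio lies lower in Ly6C- GMP, proNeu1 and proNeu2 than in preNeu and the monocyte-path groups.

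Other genes of the pathway were counted from lists. Of 17 tested genes for ITAM adaptors and the receptors that use them, 6 rose and none fell from proNeu2 to preNeu, where 13.1% of all genes were called higher and 14.7% lower. From TpMo to Ly6Chi monocytes 11 rose and 2 fell, against 7.59% higher and 13.3% lower. Tyrobp, which encodes the DAP12 adaptor related to the gamma chain, rose by 2.05 in the step to preNeu (adjusted p = 1.6e-09). In sepsis, averaged over populations, 7 of these genes rose and 5 fell, against 19.6% of all genes higher and 17.5% lower. Clec4e, the gene of Mincle, a receptor for mycobacterial and damage-derived glycolipids, rose by 1.31 (adjusted p = 3.3e-11), and Cd300lb fell by 1.85 (adjusted p = 1.4e-08). Clec5a, which pairs with DAP12, rose in septic Ly6C- GMP by 2.96 (adjusted p = 1.1e-10), from 34.8 ± 12.1 to 249 ± 19 CPM.

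Among 11 tested SRC and SYK family kinases and their regulators, 7 rose and none fell from cMoP to TpMo, against 9.52% of all genes higher and 8.56% lower, and 4 rose and none fell from proNeu2 to preNeu, against 13.1% and 14.7%. Pag1, which encodes a membrane adaptor that recruits the inhibitory kinase CSK, rose in septic Ly6C- GMP (1.90, adjusted p = 2.8e-05), proNeu1 (1.57, adjusted p = 0.00046) and proNeu2 (2.19, adjusted p = 6e-06). Of these 11 genes 4 rose and none fell on average in sepsis. For comparison, 37.1% of all tested genes were called in that average, and the median change over the list was 0.28 against 0.00 over all genes.

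Of 24 effectors downstream of SYK, 12 rose and 2 fell in septic Ly6C- GMP, against 10.3% of all genes higher and 7.42% lower, with a median of 0.41 over the list against -0.01 over all genes. On average in sepsis 13 rose and 2 fell, against 19.6% and 17.5%. Pik3cd, a catalytic subunit of phosphoinositide 3-kinase, rose in septic Ly6C- GMP by 1.17 (adjusted p = 1e-05), from 123 ± 39.1 to 254 ± 40.6 CPM. Lcp2, which encodes the adaptor SLP-76, fell in all 4 populations, with log2 fold changes of -0.97 in Ly6C- GMP (adjusted p = 3.3e-05) and -0.65 in preNeu (adjusted p = 0.004), and from 320 ± 39 to 215 ± 24.4 CPM in the latter.

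Of 22 genes listed as ITIM receptors and inhibitory phosphatases, 13 rose and 1 fell from proNeu2 to preNeu, against 13.1% of all genes higher and 14.7% lower. From cMoP to TpMo 13 rose and 2 fell, against 9.52% and 8.56%. The largest rises at 20 CPM or more were Pirb (4.36, adjusted p = 1.3e-07) and Lilr4b (4.23, adjusted p = 2.5e-06) at the former step and Lilrb4a (4.40, adjusted p = 6.9e-08) at the latter. These genes encode receptors with immunoglobulin-like domains and belong to families of similar genes, so their counts are uncertain. Whether each listed receptor carries an ITIM was not checked. In sepsis 8 rose and 3 fell on average, against 19.6% and 17.5%. Siglece, an inhibitory sialic acid receptor, rose by 3.12 in septic Ly6C- GMP (adjusted p = 5.6e-09), from 2.55 ± 0.769 to 20.4 ± 5.03 CPM.

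Among 10 tested genes for other Fc receptors and their partners, Ms4a2 and Fcer1a, chains of the mast cell and basophil receptor for immunoglobulin E, fell in septic Ly6C- GMP, with log2 fold changes of -3.04 (adjusted p = 1.1e-05) and -4.17 (adjusted p = 0.0081). Both also serve in the basophil and mast cell marker list. B2m, the light chain partner of the neonatal receptor and of class I molecules, rose at each monocyte step, by 0.49, 0.36 and 0.47, and fell in septic proNeu1 (-0.45, adjusted p = 0.011), proNeu2 (-0.48, adjusted p = 0.006) and preNeu (-0.43, adjusted p = 0.02). Ighm, the constant gene of immunoglobulin M and also a B cell marker of these lists, fell in all 4 septic populations, with a log2 fold change of -4.70 in Ly6C- GMP (adjusted p = 1.8e-06).

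Similarity of pattern was measured as Pearson's r of log2(CPM + 1) over the 33 libraries among 8409 genes reaching 20 CPM in a group, as a description, since libraries of a group share their stage. The genes most like Fcer1g were Lgals3 (r = 0.974), Tyrobp (0.972) and Fmnl1 (0.963), and those most like Fgr were Nhsl2 (0.96) and Pi16 (0.957). Lyn was most like Anxa2 (0.96), Myo1g (0.955) and Lrrc25 (0.952), Fcgr1 most like Nupr1 (0.947), Il13ra1 (0.944) and Wfdc17 (0.942), and Fcgrt most like Qpct (0.946), Ifi211 (0.945) and Crip1 (0.943). Syk was nearest to Susd6 (0.919) and Peli1 (0.906). Fcgr2b was nearest to Tppp3 (0.892), Ifit3 (0.892) and Atf3 (0.878), but the rank correlations of these were 0.5, 0.499 and 0.508. Fcgr4 (Ppp1r3d at 0.865, Sp140 at 0.849, Dmxl2 at 0.847) and Fcgr3 (Ganc at 0.839) had the least similar neighbours.

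Between the 9 genes themselves the same measure was highest for Fcgr1 with Lyn (r = 0.903), Fcer1g with Lyn (0.86), Fcgr1 with Fcgr2b (0.857) and Syk with Fgr (0.834). Fcgr3 stood apart, with r between -0.125 (Lyn) and 0.107 (Fcgr2b) to the other 8. Fcgr4 and Fcgrt had a negative value (-0.384).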

How the data were processed

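Per the labels' protocols, RNA was amplified by SMARTSeq v2 from 2 ng and sequenced as paired reads of 151 cycles. The submitters' processing notes name STAR, featureCounts and GRCm38, and each deposited value is a whole-number count per gene, not normalized; versions, strand, multiple-mapping and pair settings are not given in the sources used here. Even numbers made up 76.2% of the counts between 1 and 10, as would follow from counting both mates of a pair, so a count here is not 1 molecule. The table held 0 spike-in features.

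From these counts, CPM used library totals. All 33 libraries were fitted in edgeR 4.0.16 (R 4.3.3) with TMM scaling, filterByExpr (18198 genes kept) and robust quasi-likelihood tests (biological coefficient of variation 0.472, 22 residual degrees of freedom), checked on simulated data. DESeq2 1.42.0, RLE factors, other filters, subsets of libraries, halved counts and each library left out were alternatives. Scaling by total counts and leaving out a population from the ratios were chosen after seeing the data. Pathway genes named are the called ones with the 2 largest rises and falls per list at 20 CPM or more, from which examples were taken; some are not reported here. Members and lists were chosen with earlier results of these data known.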

Additional observations from a re-analysis of the deposited data

Results flagged for a closer look

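The sepsis effects in Ly6C- GMP, proNeu1, proNeu2 and preNeu differed from each other, by edgeR's interaction test adjusted over all genes, for 3 of the 9 genes. Fcgr3 had an adjusted p of 0.00481, with changes of -0.67, -0.51, -0.35 and 0.32 in that order of populations. Fcer1g had an adjusted p of 0.000126, with changes of -0.94, -0.52, 0.70 and -0.13. Fcgrt had an adjusted p of 0.0333, with changes of -4.58, -3.58, -1.30 and -0.79, and its call was lost under 4 alternatives and without any of 6 libraries.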

How the results depend on the processing

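No called gene changed direction under any alternative run. Over single genes, 26 results lost and 14 gained a call among 1007 alternative values that did not leave out a single library, and 58 lost and 13 gained one among 1080 that did. The count of members called fell from 1 to 0 between proNeu1 and proNeu2 with only the libraries compared and without the shallow libraries, and from 2 to 1 in septic preNeu without the shallow libraries. With a library left out, counts ran from 2 to 3 for proNeu1 against Ly6C- GMP, 0 to 1 for proNeu2 against proNeu1, 6 to 7 for preNeu against proNeu2, 2 to 3 for cMoP against Ly6C- GMP, 6 to 7 for TpMo against cMoP, 7 to 8 for Ly6Chi monocytes against TpMo, 5 to 6 for cMoP against proNeu1 and 6 to 7 for Ly6Chi monocytes against preNeu. For sepsis they ran from 3 to 4 in Ly6C- GMP, 2 to 5 in proNeu1, 3 to 6 in proNeu2, 1 to 2 in preNeu, 6 to 8 in the mean and 2 to 3 in the interaction. The activating to inhibitory ratio ran from -0.5471 to -0.4465. It was -0.3736 (exact permutation p = 0.0772) without the Ly6C- GMP population and -0.3644 (0.0725) without proNeu1. Without proNeu2 it was -0.4215 (exact permutation p = 0.0393) and without preNeu -0.798 (0.0005). The gamma chain ratio ran from -0.00994 to 0.0871 and was -0.2822 (exact permutation p = 0.0335) without the proNeu2 population, whose septic difference was the only positive one.

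Over all genes, calls between proNeu1 and proNeu2 numbered 555, or 1119 by DESeq2, 353 in a fit of those 6 libraries and 226 to 334 without proNeu1 replicate 1, 2 or 3 or proNeu2 replicate 2 or 3. proNeu1 against Ly6C- GMP had 1100, or 711 without proNeu1 replicate 3. Septic proNeu1 had 2839, or 1745 without the shallow libraries and 1880 without septic replicate 3, septic proNeu2 3097, or 2060 without control replicate 2, septic preNeu 2145, or 1219 with only the libraries compared and 1226 without control replicate 1, and the interaction 1154, or 2124 with DESeq2 and 734 without control preNeu replicate 2. The cause was not tested. Scaling by total counts moved the median of all genes by up to -0.192 (TpMo against cMoP) and 0.208 (Ly6Chi monocytes against preNeu) on the log2 scale, and by -0.13 in septic Ly6C- GMP. No paired analysis was possible because the labels give no replicate numbers that link samples across groups. Depth limits Fcgr1 and Fcgrt on the neutrophil path, where a group held as few as 32 and 6 counts.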
